A study of Homo sapiens with 6 samples.

Results

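Keratinocytes make chemokines, which draw white blood cells into skin, and cytokines of the IL-1 family, which raise the alarm after injury. The 10 transcripts described here were chosen by gene symbol: the neutrophil chemokines CXCL1, CXCL2, CXCL3 and CXCL8, the chemokines CCL2 and CCL20, the IL-1 family agonists IL1A, IL1B and IL36G, and the IL-1 receptor antagonist IL1RN. All 10 have a row among the 15379 gene symbols of the deposited table. The cells were HaCaT, an immortalized line of human keratinocytes, for which the labels assign no genotype; the whole study is of this 1 line. The treated group was exposed to 41C and the control group to 37C, each for 1 h daily over 3 days, and each group had 3 mRNA libraries. The series title names heat, the channel TRPV3, calcium, Hedgehog signalling and paracrine effects on pigment cells; the sources used here do not give the time between the last exposure and RNA extraction.

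The neutrophil chemokines bind the receptor CXCR2. CCL2 binds CCR2 and recruits monocytes, and CCL20 binds CCR6 and recruits dendritic cell precursors and T cells. IL-1 alpha is stored in keratinocytes and released from damaged cells, IL-1 beta needs proteolytic cleavage before release, and both act through IL1R1; the product of IL1RN occupies that receptor without signalling. NF-kB and AP-1 switch most of these genes on, and many of their mRNAs decay quickly.

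All 4 neutrophil chemokine genes lie on chromosome 4 and share the 9 bases GGAATTTCC, a form of the NF-kB site, shortly before the start of transcription. The 30 bases around that site are shown to set the paralogs side by side, since their counts are described together. They are printed 5′ to 3′ on the strand of the gene, with the shared 9 bases in capitals, from RefSeq on GRCh38.p14 at chr4:73869305-73869334 (CXCL1, plus strand), chr4:74099253-74099282 (CXCL2, minus), chr4:74038748-74038777 (CXCL3, minus) and chr4:73740468-73740497 (CXCL8, plus).
CXCL1: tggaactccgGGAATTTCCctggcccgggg
CXCL2: tggagctccgGGAATTTCCctggcccggga
CXCL3: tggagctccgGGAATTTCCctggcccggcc
CXCL8: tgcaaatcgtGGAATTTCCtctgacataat

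In GENCODE release 29 on GRCh38 the genes themselves span chr4:73869393-73871242 (CXCL1), chr4:74097035-74099293 (CXCL2), chr4:74036589-74038807 (CXCL3) and chr4:73740506-73743716 (CXCL8). CCL2 lies at chr17:34255218-34257203 and CCL20 at chr2:227805739-227817564. The IL-1 family genes are neighbours on chromosome 2: IL1A at chr2:112773915-112784590, IL1B at chr2:112829751-112836903, IL36G at chr2:112973203-112985665 and IL1RN at chr2:113107214-113134016. Of the 10 genes, IL36G overlaps another annotated gene, a pseudogene on the opposite strand that shares no exon with it.

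The CXCL1 and CXCL2 stretches were identical at 28 of 30 bases, as were those of CXCL2 and CXCL3, whereas CXCL8 matched CXCL1 at 17. Relative to the RefSeq start, the site began at -78 in CXCL1 and CXCL3, at -77 in CXCL2 and at -91 in CXCL8. GENCODE release 29 starts CXCL2 and CXCL3 further upstream, so that the site lies inside those 2 gene models. Promoters of RefSeq (250 bases before to 50 after the start) were in the table for 9 of the 10 genes, without CCL2. The 9 bases, on either strand, were found in the 4 neutrophil chemokines and in 0.461% of all 35116 promoters. No match was found in the promoters of CCL20, IL1A, IL1B, IL36G or IL1RN in that window. The 62 tested genes that hold the 9 bases, the 4 neutrophil chemokines among them, had a median log2 change of 0.00 at 41C. All 9812 tested genes with a RefSeq promoter also had a median of 0.00. At the threshold 1 of the 62 rose and 0 fell, beside 0.821% and 0.265% of all tested genes. The AP-1 motif TGANTCA was found in 7.71% of promoters, among them those of CXCL8, IL1A and IL1RN. The heat shock element cores GAANNTTC (6.77% of promoters) and TTCNNGAA (7.74%) were found in IL1B and IL1A, respectively.

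Library totals ran from 19659112 to 20856144 counts. 37C replicate 3 stood apart over all genes: the chi-square per degree of freedom of its counts was 10.8 against 37C replicate 1 and 7.501 against replicate 2, while the other pairs within a group ran from 2.41 to 4.18. Keratinocyte markers were abundant, and 10 of 10 were tested. Their summed level was 7322 to 7869 CPM (counts per 1000000, scaled between libraries) at 37C and 8330 to 8613 at 41C. At the threshold 3 of the 10 rose, beside 0.821% of all tested genes, and 3 others had a negative log2 change. For the leukocyte gene PTPRC the 37C libraries held 1 count and the 41C libraries 2. The 4 tested of 11 immune cell markers summed to 16.4 to 20.4 CPM at 37C and 15.3 to 18.7 at 41C, and the 2 tested of 6 endothelial markers to 20.4 to 29.9 and 18.4 to 22.6; their part in the results was not tested. The 3 tested of 8 fibroblast markers summed to 13.8 to 16.6 CPM at 37C and 15.8 to 17.9 at 41C, and the 2 tested of 7 melanocyte markers to 4.70 to 4.91 and 4.99 to 6.21. Of 7 heat shock genes 6 were higher at an unadjusted p under 0.05, beside 7.58% of all tested genes, and 2 rose at the threshold: HSPA1A, the inducible HSP70 gene, by 0.30 ± 0.05 on the log2 scale (SE; edgeR adjusted p = 0.00498) and HSPA8 by 0.21 ± 0.05 (edgeR adjusted p = 0.0364). HSPA8 lost its call in 7 of 16 other settings and HSPA1A in 2, and HSPH1 did not pass (0.23 ± 0.06, edgeR adjusted p = 0.130). HSPA1A is nearly identical to HSPA1B (0.17 ± 0.05, edgeR adjusted p = 0.108), so the split between these genes is uncertain; HSPA8 and HSPA1B were named after their values were seen. Whether the replicates came from separate cultures is not labelled; the p-values therefore rest on the spread between these libraries, which may be technical.

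After daily exposure to 41C no transcript of the 10 passed the threshold, an adjusted p of 0.05 over all 12056 genes tested with edgeR. All 8 that had enough counts to be tested had a negative log2 change, with a median of -0.27, beside 0.00 for all tested genes, of which 49.1% were negative. The changes of the 5 tested chemokines ran from -0.79 to -0.24 and those of the 3 tested IL-1 cytokines from -0.11 to -0.05. Over all genes 1.09% passed the threshold, 0.821% higher and 0.265% lower. At an unadjusted p under 0.05, 4 of the 8 were lower (CXCL1, CXCL3, CXCL8 and CCL2), beside 6.12% of all tested genes. In 2 of the 8, CXCL3 and CCL2, every library at 41C lay below every library at 37C, beside 8.84% of all tested genes. The 10 transcripts were chosen with earlier results of these data known, so these shares describe them and are not a test. Other tools called 1 lower (DESeq2, CCL2), 0 (limma-voom) and 1 (limma on log2(FPKM + 0.1), CXCL3). Of the 8, DESeq2 gave an adjusted p to CCL2 alone.

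**Figure D1:**
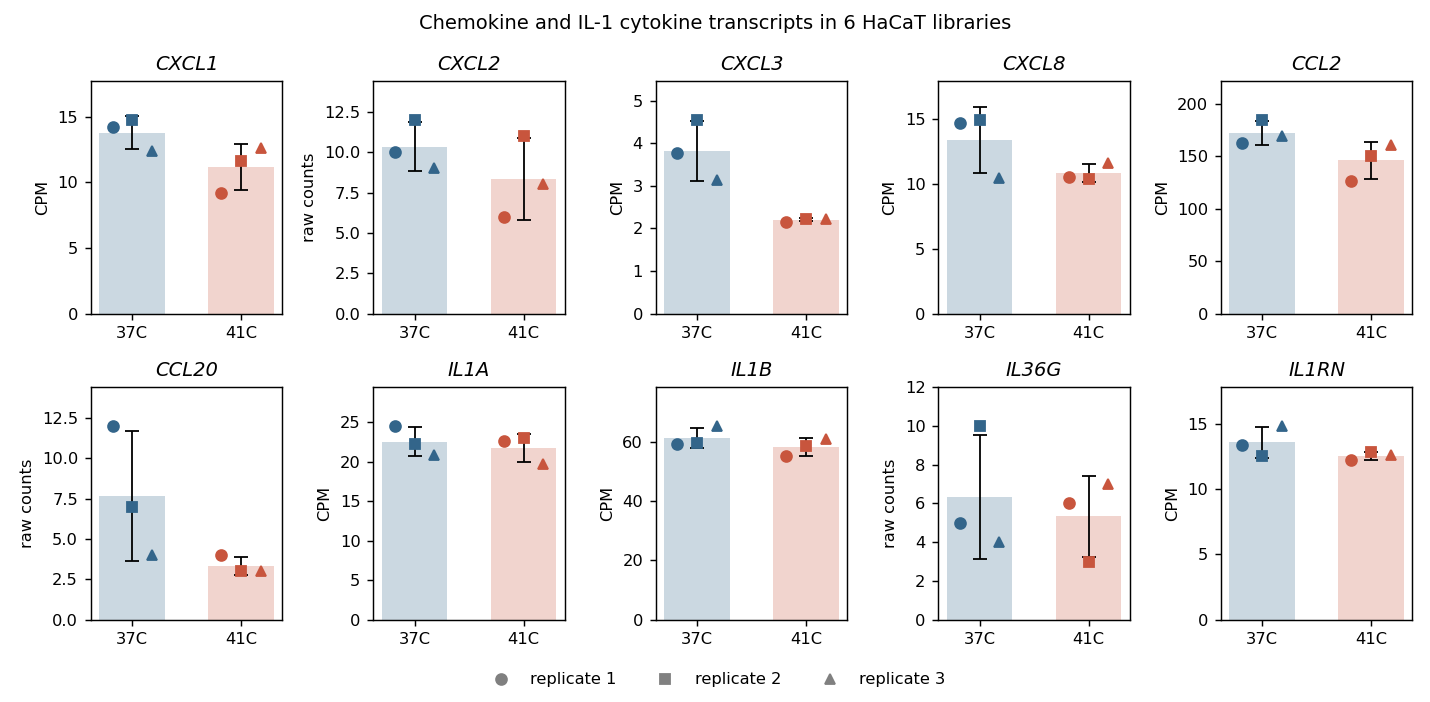
Level of each transcript (y axis) in the 3 libraries at 37C and the 3 at 41C, in CPM, or in raw counts for the sparse CXCL2, CCL20 and IL36G. Points are libraries, bars are means and error bars are SD (n = 3); the groups of CXCL3 and CCL2 do not overlap, those of CXCL1 and CXCL8 overlap through 37C replicate 3, that of IL1B through 41C replicate 3 and that of IL1RN through 37C replicate 2.

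CXCL3 had the lowest log2 change of the 8. Its counts in replicates 1, 2 and 3 were 75, 90 and 62 for 37C, against 45, 46 and 44 for 41C. The libraries at 41C were tightly grouped, while those at 37C were spread and all higher. The level was 3.82 ± 0.708 CPM at 37C and 2.20 ± 0.0380 at 41C (SD, n = 3), which is 0.577 of the 37C level with a 95% interval of 0.431 to 0.774 (log2 change -0.79 ± 0.20, edgeR adjusted p = 0.0707). The call was made without 37C replicate 3 (-0.91, edgeR adjusted p = 0.00733) and without a filter on low counts (edgeR adjusted p = 0.0278), and without 37C replicate 2 the adjusted p was 0.375 in edgeR.

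CXCL1, the most abundant of the neutrophil chemokines per length, gave 283, 292 and 245 counts in the 37C libraries, against 192, 240 and 251 in those at 41C. In CPM the values were 14.2, 14.8 and 12.4 at 37C and 9.21, 11.6 and 12.6 at 41C. The groups overlapped, because 41C replicate 3 lay just above 37C replicate 3. The log2 change was -0.31 ± 0.12 (edgeR adjusted p = 0.279), or 0.809 of the 37C level with an interval of 0.677 to 0.966. It was -0.18 without 41C replicate 1, the lowest library, and -0.38 without 37C replicate 3, when it passed (edgeR adjusted p = 0.0475).

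CXCL8, which encodes interleukin 8, gave 293, 295 and 206 counts in the 37C libraries, against 219, 213 and 230 in those at 41C. Of the libraries at 37C, 2 were high and replicate 3, at 10.4 CPM, lay among those at 41C, at 10.5, 10.3 and 11.6 CPM. The log2 change was -0.31 ± 0.13 (edgeR adjusted p = 0.308), or 0.809 of the 37C level with an interval of 0.668 to 0.980. Without 37C replicate 3 it was -0.45 and passed (edgeR adjusted p = 0.00835).

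CXCL2 was sparse, with 10, 12 and 9 counts in the 37C libraries, against 6, 11 and 8 in those at 41C. The groups overlapped, and the ratio of the summed counts at 41C to those at 37C (25 and 31), relative to library totals, was 0.77, with an exact 95% counting interval of 0.44 to 1.35. A change of this size was not detectable at this depth. Counting intervals cover counting error only.

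CXCL1, CXCL2 and CXCL3 are close paralogs, and the sources used here do not give how reads that fit several of them were assigned. Of the 50-base stretches in the annotated transcripts, 4.81% of CXCL1, 12.5% of CXCL2 and 6.01% of CXCL3 also occur in another of the 3, and 0% of CXCL8 in any other gene. At 100 bases it was 0% of CXCL1, 79 of 1581 stretches of CXCL2 and 79 of 2413 of CXCL3. The separate values of the 3 are therefore uncertain, by an amount that these shares do not measure, and they were also summed. The sum was 368, 394 and 316 counts in the 37C libraries, against 243, 297 and 303 in those at 41C, and all libraries at 41C lay below those at 37C. Its log2 change was -0.40 ± 0.11, with an interval of -0.64 to -0.16 (edgeR adjusted p = 0.106). With CXCL8 added the change was -0.36 ± 0.10 (edgeR adjusted p = 0.138). Both sums passed without 37C replicate 3 (edgeR adjusted p = 0.00417 and 0.000235) and without a filter on low counts (0.0314 and 0.0406).

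**Figure D2:**
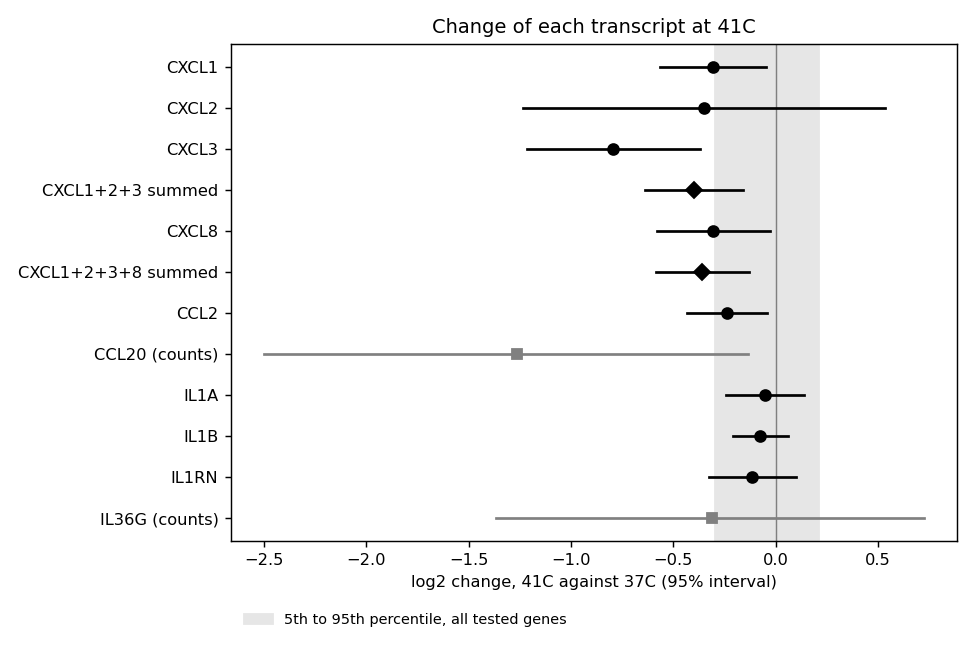
Log2 change at 41C against 37C (x axis) with 95% intervals for each transcript and for summed paralogs (diamonds). Grey squares are ratios of summed raw counts with exact counting intervals. The shaded band spans the 5th to 95th percentile of all tested genes, -0.29 to 0.21. CXCL3 (-0.79) lies furthest left of the tested transcripts. The estimates of CXCL2 (-0.35), CXCL1 and CXCL8 (both -0.31) lie just left of the band, and those of CCL2, IL1A, IL1B and IL1RN lie inside it.

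CCL2, the monocyte chemokine, had the highest level of the 10. Its libraries gave 3238, 3656 and 3348 counts in the 37C libraries, against 2644, 3098 and 3202 in those at 41C, or 162.5, 184.9 and 169.5 CPM against 126.9, 150.3 and 161.2. The groups did not overlap, though 41C replicate 3 and 37C replicate 1 were nearly level. The log2 change was -0.24 ± 0.09 (edgeR adjusted p = 0.279), or 0.848 of the 37C level with an interval of 0.741 to 0.971. It was -0.15 without 41C replicate 1 and -0.13 when each library was corrected for its trend on gene length. DESeq2 gave the same size of change and called it (-0.24, DESeq2 adjusted p = 0.0379). That adjustment covered 3155 genes, against 12056 in edgeR.

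CCL20 had 12, 7 and 4 counts in the 37C libraries, against 4, 3 and 3 in those at 41C and was too sparse to be tested. The highest library was 37C replicate 1, and 37C replicate 3 was level with 41C replicate 1. The ratio of the summed counts, 10 against 23, was 0.42, with a counting interval of 0.18 to 0.91, and 0.58 without 37C replicate 1. The interval leaves out differences between cultures.

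The 3 tested IL-1 cytokines had log2 changes near 0, and their groups overlapped. IL1B gave 1178, 1178 and 1291 counts in the 37C libraries, against 1149, 1206 and 1214 in those at 41C, or 61.4 ± 3.48 and 58.3 ± 3.01 CPM (SD, n = 3). The groups overlapped, and the log2 change was -0.07 ± 0.06 (edgeR adjusted p = 0.657). The interval of the ratio to 37C was 0.865 to 1.04. IL1A gave 489, 441 and 412 counts in the 37C libraries, against 471, 474 and 392 in those at 41C, with replicate 3 lowest at both temperatures. Its log2 change was -0.05 ± 0.09 (edgeR adjusted p = 0.863), with an interval of the ratio of 0.846 to 1.10, and it turned positive, at most 0.014, without 37C replicate 1 or without 41C replicate 3.

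IL1RN, the antagonist, gave 266, 248 and 293 counts in the 37C libraries, against 255, 264 and 250 in those at 41C. The groups overlapped in CPM, and the log2 change was -0.11 ± 0.10 (edgeR adjusted p = 0.674), with an interval of the ratio of 0.798 to 1.07. IL36G, an epidermal agonist of the IL-36 receptor, had 5, 10 and 4 counts in the 37C libraries, against 6, 3 and 7 in those at 41C. The ratio of its sums, 16 against 19, was 0.81, with a counting interval of 0.39 to 1.65, and it was 1.14 without 37C replicate 2. A ratio of this size could not be told from 1 at this depth.

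Ratios within a library do not depend on scaling between libraries. Per length, IL1RN stood at 0.461, 0.476 and 0.603 of IL1A at 37C and 0.459, 0.472 and 0.540 at 41C, so replicate 3 had the highest ratio at both temperatures. The difference of the mean log2 ratios was -0.06 (exact two-sided permutation p = 0.6; 3 libraries against 3 cannot go below 0.1). IL1RN stood at 0.133 to 0.144 of IL1B at 37C and 0.130 to 0.140 at 41C (difference -0.04, exact permutation p = 0.5). The ratio of IL1A to IL1B differed by 0.02 (exact permutation p = 0.9), and that of CXCL8 to the sum of CXCL1, CXCL2 and CXCL3 by 0.12 (exact permutation p = 0.5). None of the 4 ratios separated the temperatures, and all 4 overlapped between the groups.

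Levels of different genes were compared per length, in FPKM (counts per kilobase and 1000000 counts). At 37C CCL2 was highest, at 234.0 ± 15.1 FPKM (SD, n = 3), followed by IL1B at 39.3 ± 2.01. CXCL1 (11.8 ± 1.11) and IL1A (10.8 ± 0.960) overlapped, and CXCL8 (8.19 ± 1.59), IL1RN (5.50 ± 0.450) and CXCL3 (3.58 ± 0.669) followed without overlap between neighbours. CXCL2 (0.471 ± 0.0705), CCL20 (0.467 ± 0.247) and IL36G (0.266 ± 0.135) were lowest and overlapped. At 41C the order was the same except in those overlapping places: IL1A (10.3 ± 0.901) stood above CXCL1 (9.44 ± 1.44), and IL36G above CCL20.

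**Figure D3:**
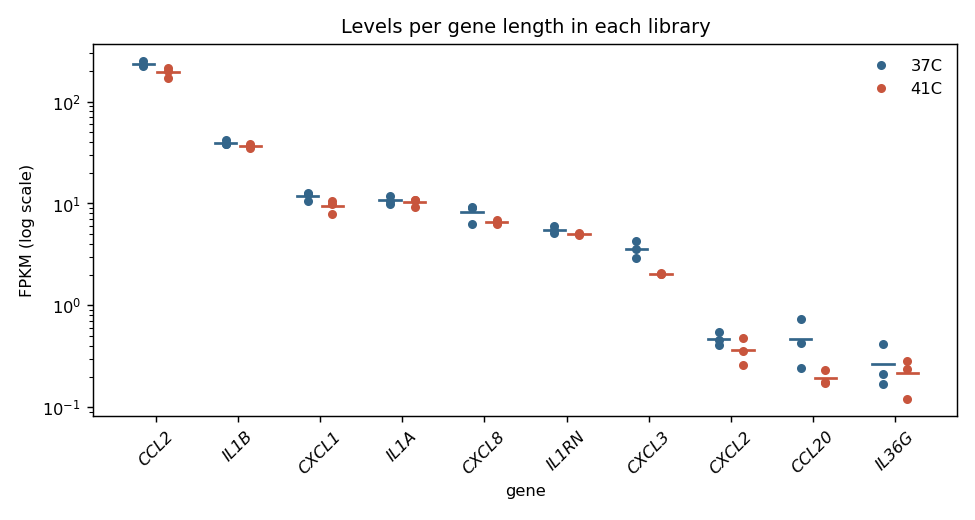
FPKM of each transcript on a log axis in the 3 libraries at 37C (blue) and the 3 at 41C (red), with group means as lines. Transcripts are ordered by their mean at 37C, from CCL2 at 234.0 to IL36G at 0.266 FPKM, a range far wider than the difference between temperatures.

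37C replicate 3 was the only single library whose omission led to calls among the chemokines. Among the 37C libraries it had the lowest counts of CXCL1, CXCL2, CXCL3, CXCL8, CCL20, IL1A and IL36G and the highest of IL1B and IL1RN. Without it CXCL1, CXCL3 and CXCL8 passed as lower, and CCL2 did not pass (log2 change -0.25, edgeR adjusted p = 0.364). The number of genes called went from 131 of 12056 tested to 805 of 12154, of which 322 were lower. Without any other single library 0 of the 8 passed, while the number of all genes called lay between 5 and 223.

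**Figure D4:**
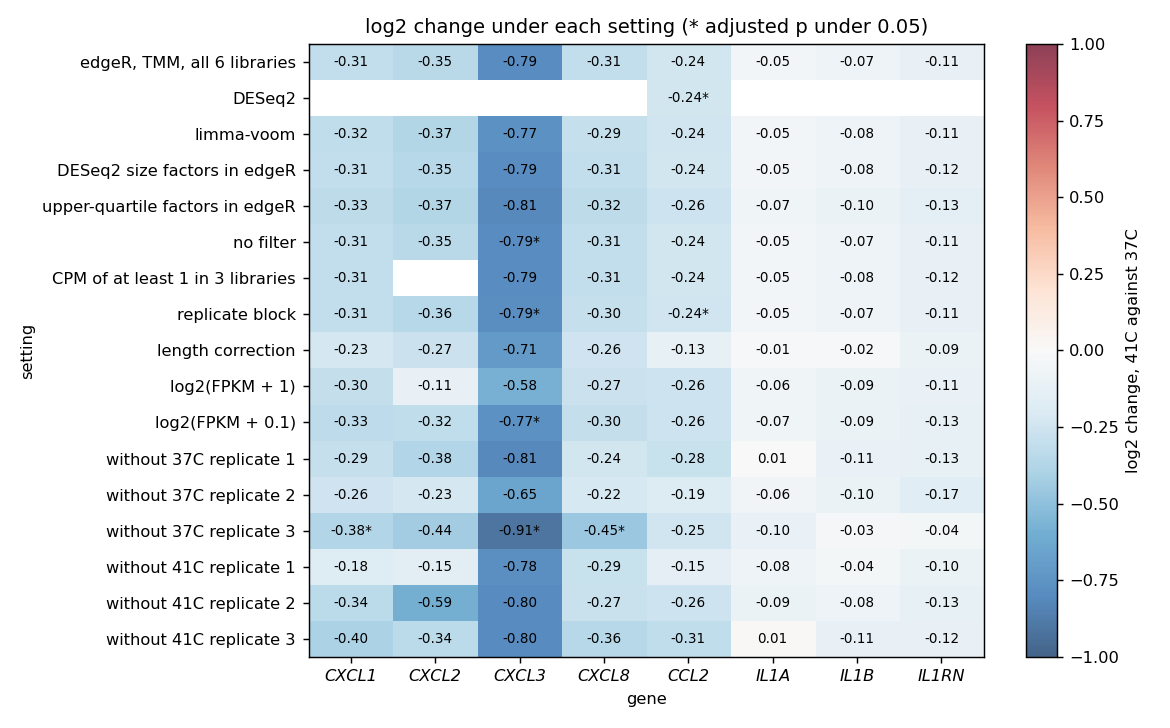
Log2 change at 41C against 37C of the 8 tested transcripts (columns) under each setting (rows), with blue for negative values and an asterisk for an adjusted p under 0.05. Empty cells have no adjusted p or no test; the neutrophil chemokines and CCL2 are negative in every filled cell, and IL1A is positive, at most 0.014, without 37C replicate 1 or 41C replicate 3.

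Genes related to these cytokines, not all of them known partners of the 10, were taken from lists. At an unadjusted p under 0.05, 6.12% of all tested genes were lower and 7.58% higher, the shares beside which the counts of each list stand. Of 7 tested other chemokines (of 19 listed), 0 passed over all genes with edgeR, 2 were lower at an unadjusted p under 0.05, and the median log2 change was -0.16. CXCL5, another ligand of CXCR2, had 23, 14 and 11 counts in the 37C libraries, against 3, 5 and 10 in those at 41C, so its groups did not overlap (log2 change -1.44 ± 0.47, edgeR adjusted p = 0.175). CXCL6, also a ligand of CXCR2, had 69, 114 and 65 counts in the 37C libraries, against 47, 70 and 56 in those at 41C (-0.56 ± 0.24, edgeR adjusted p = 0.303). The T cell chemokine CCL5 (-0.22 ± 0.14) and the epithelial chemokine CCL28 (-0.14 ± 0.22) overlapped between the groups.

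Among 6 tested receptors (of 13), SIGIRR fell at the threshold and 0 rose, beside 0.265% and 0.821% of all tested genes. At an unadjusted p under 0.05, 2 were lower and 1 was higher, and the median log2 change was -0.30. SIGIRR, an inhibitory receptor of the IL-1 receptor family, gave 569, 619 and 604 counts in the 37C libraries, against 433, 508 and 488 in those at 41C, with no overlap in CPM (-0.37 ± 0.08, edgeR adjusted p = 0.0427). Leaving out 37C replicate 2 (edgeR adjusted p = 0.278) or any 41C library (0.248, 0.174 and 0.115) ended that call, with log2 changes of -0.35, -0.29, -0.41 and -0.41 in that order, as did limma-voom (adjusted p = 0.0610), the length correction (0.0514) and log2 FPKM values in limma (0.0923 with a pseudocount of 1 and 0.0779 with 0.1), where the log2 changes ran from -0.39 to -0.33. CXCR2, the receptor of the neutrophil chemokines, had 43, 50 and 41 counts in the 37C libraries, against 30, 26 and 27 in those at 41C (-0.73 ± 0.23, edgeR adjusted p = 0.151); its groups did not overlap. The scavenger receptor ACKR3 (0.21 ± 0.07, edgeR adjusted p = 0.191), the co-receptor IL1RAP (0.10 ± 0.06) and the IL-36 receptor gene IL1RL2 (-0.28 ± 0.26) did not pass.

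Of 15 tested genes for IL-1 processing and release (of 18), 0 passed with edgeR, 5 were lower at an unadjusted p under 0.05 (6.12% of all tested genes), and the median log2 change was -0.10. CTSS, the cathepsin S gene, gave 226, 303 and 229 counts in the 37C libraries, against 180, 171 and 196 in those at 41C (-0.51 ± 0.13, edgeR adjusted p = 0.0710), without overlap. The inflammatory caspase CASP4 (-0.16 ± 0.06), the caspase CASP8 (-0.17 ± 0.06) and NINJ1, which ruptures the membrane of dying cells (-0.17 ± 0.07), had adjusted p-values of 0.223, 0.236 and 0.296 in edgeR. CASP1, the protease that cleaves IL-1 beta, was chosen after its values were seen and did not pass either (log2 change -0.17 ± 0.08, edgeR adjusted p = 0.317). Of 3 tested other IL-1 family genes (of 8), 0 passed with edgeR and 0 had an unadjusted p under 0.05: the cytokine IL18 (-0.02 ± 0.06), its soluble binder IL18BP (-0.31 ± 0.17) and the IL-36 antagonist IL36RN (0.06 ± 0.36).

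Of 18 other NF-kB target genes, all tested, 0 passed with edgeR, 2 were higher and 4 lower at an unadjusted p under 0.05 (7.58% and 6.12% of all tested genes), and the median log2 change was 0.00. SOD2, a mitochondrial antioxidant enzyme (-0.17 ± 0.05, edgeR adjusted p = 0.102), NFKBIA, the inhibitor of NF-kB (-0.19 ± 0.06, edgeR adjusted p = 0.149), and the transcription factor IRF1 (-0.20 ± 0.07, edgeR adjusted p = 0.191) had negative changes. TNIP1, an inhibitor of NF-kB signalling, had a positive one (0.16 ± 0.05, edgeR adjusted p = 0.113). The 18 targets had log2 changes of both signs, 10 of them negative.

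Of 11 tested other cytokines (of 18), 0 passed with edgeR, 3 were lower at an unadjusted p under 0.05, and the median was -0.02. LIF, a cytokine of the IL-6 family, gave 241, 223 and 204 counts in the 37C libraries, against 189, 176 and 173 in those at 41C, without overlap (-0.36 ± 0.11, edgeR adjusted p = 0.142). CSF1, a growth factor of macrophages (-0.29 ± 0.10), the death ligand TNFSF10 (-0.35 ± 0.12) and IL15 (-0.40 ± 0.22) had adjusted p-values of 0.254, 0.292 and 0.428 in edgeR. Of 8 regulators of unstable cytokine mRNAs, all tested, 0 passed with edgeR, 2 were higher and 1 lower at an unadjusted p under 0.05, and the median was 0.05. ZC3H12A, an RNase that degrades cytokine mRNAs (-0.22 ± 0.07, edgeR adjusted p = 0.175), had the smallest p, followed by the mRNA decay factors ZFP36L1 (0.13 ± 0.05) and KHSRP (0.11 ± 0.05) and the stabilizing factor ELAVL1 (0.06 ± 0.05).

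**Figure D5:**
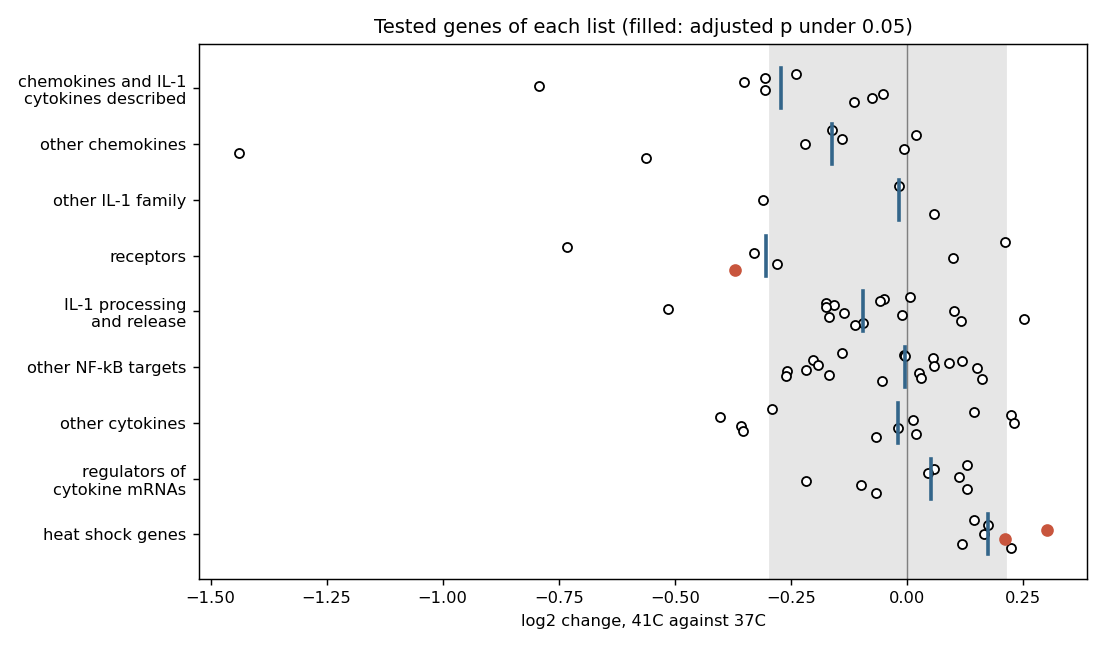
Log2 change at 41C against 37C (x axis) of each tested gene in the lists named on the y axis, with the median of each list as a blue line. Filled points passed the threshold (SIGIRR among receptors, HSPA1A and HSPA8 among heat shock genes) and the shaded band spans the 5th to 95th percentile of all tested genes; CXCL5 at -1.44 and CXCL3 at -0.79 lie furthest to the left.

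The genes whose pattern over the 6 libraries was most like that of CXCL3 were found among 11480 candidates by the root mean square difference of centred log2 CPM. They were TRIM31 (0.062), FCHSD1 (0.081) and CXCR2 (0.10), with log2 changes of -0.84, -0.80 and -0.73, none of which passed. The choice by closeness itself places these changes near that of CXCL3. Those nearest to CCL2 were C9orf43 (0.033), CRB3 (0.034) and IRF9 (0.036). Among the 8 tested transcripts themselves the closest pair was IL1B and IL1RN (0.051), followed by CXCL1 and CCL2 (0.088), and CXCL3 lay at least 0.25 from each of the others. These likenesses describe 6 libraries that share depth and preparation. The measure is not scaled to the spread of a gene, so nearly flat transcripts lie close whether or not they vary together.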

How the data were processed

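Poly(A) RNA was sequenced from HaCaT cells, in 3 libraries at 37C and 3 at 41C. Per the labels' protocols, total RNA came from a mirVana extraction and went into stranded TruSeq mRNA libraries. The submitters' processing notes list Trimmomatic 0.36, HISAT2 and GRCh38.p13. The sources used here give no read counter, annotation or strand setting. The authors deposited raw counts per gene symbol and FPKM values. Within 0.01%, 100% of nonzero deposited FPKM values were the gene's count over 1 fixed length and the library total, so FPKM is no independent measurement.

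Counts were filtered (filterByExpr), scaled (TMM) and tested with edgeR 4.0.16 in R 4.3.3, by the robust quasi-likelihood test, two-sided, with Benjamini-Hochberg adjustment over 12056 genes. Log2 changes are ± SE with 95% intervals from that fit, and p-values are not adjusted within lists. Low counts were compared by exact conditional binomial (Clopper-Pearson) intervals relative to library totals, and ratios by exact permutation in scipy 1.17.1. The procedure was tested on simulated data. Alternatives used DESeq2 1.42.0 and limma 3.58.1, other scalings and filters, log2(FPKM + pseudocount), a length correction (splines with 4 degrees of freedom) and each library left out. Positions come from GENCODE release 29 and promoters from RefSeq, matched by symbol. Genes named from lists were those past the threshold and up to 4 others with the smallest p, with HSPA1A and HSPH1 of the heat shock genes; likeness was printed for the 2 transcripts of smallest p. The transcripts and lists were chosen with earlier results of these data known. Of the listed genes, those with no row were not analysed here.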

Additional observations from a re-analysis of the deposited data

How the results depend on the processing

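Each of the 8 tested transcripts kept a negative log2 change in the alternatives run, except IL1A, whose change was 0.0078 when 37C replicate 1 was left out and 0.014 when 41C replicate 3 was. The 131 genes called became 253 with DESeq2 (which gave an adjusted p to 3155 genes, not 12056), 284 with no filter, 438 with the replicate block, 24 with log2(FPKM + 1), 41 with log2(FPKM + 0.1), and 5 to 805 with 1 library left out; with upper-quartile factors the split was 57 higher and 53 lower, beside 99 and 32. The count of lower transcripts among the 10, 0 in the main analysis, was 1 with DESeq2, 1 with no filter, 1 with log2(FPKM + 0.1), 2 with the replicate block and 0 to 3 with 1 library left out. CXCL3 passed with no filter (-0.79), with log2(FPKM + 0.1) (-0.77) and with the replicate block (-0.79), and ran from -0.91 to -0.65 with 1 library left out. CCL2 passed with DESeq2 (-0.24) and with the replicate block (-0.24). With the length correction all 8 changes lay nearer to 0, at -0.71 for CXCL3, -0.26 for CXCL8, -0.23 for CXCL1 and -0.13 for CCL2. The sums passed with no filter (-0.40 for CXCL1 to CXCL3, -0.36 with CXCL8) and ran from -0.48 to -0.29 and from -0.47 to -0.28 with 1 library left out. Over those omissions CXCL1 ran from -0.40 to -0.18, CXCL8 from -0.45 to -0.22 and IL1A from -0.10 to 0.014. The difference of log2 ratios ran from -0.13 to 0.062 for IL1RN over IL1A from -0.079 to 0.13 for IL1A over IL1B, from -0.071 to -0.0036 for IL1RN over IL1B and from 0.023 to 0.19 for CXCL8 over CXCL1 to CXCL3. The causes were not tested. DESeq2 gave a negative log2 change to all 10 transcripts but no adjusted p to 7 of the 8, and those 7 are not counted as lost or kept calls.

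Correlations of deviations did not settle whether the replicate numbers pair the libraries. Same-numbered libraries correlated at 0.08, -0.02 and 0.08. At 37C, replicates 1 and 3 correlated best with the same number at 41C. 37C replicate 2 correlated best with 41C replicate 3 (0.06). With the replicate block, sign-flip tests of the ratios gave exact p-values of 0.25 to 0.75 for the same differences (-0.06, -0.04, 0.02 and 0.12); 3 pairs cannot go below 0.25, so these tests could not pass. Depth limits CXCL2, CCL20 and IL36G, with 31, 23 and 19 counts in all at 37C.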
